A study of Homo sapiens with 6 samples.

Results

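Respiratory complex I is the NADH dehydrogenase of the mitochondrial inner membrane, and its nuclear genes carry symbols that begin with NDUF. The members described here are the protein-coding genes whose present or older symbol begins so: the subunits NDUFA, NDUFB, NDUFC, NDUFS, NDUFV and NDUFAB1, and the assembly factors NDUFAF. RefSeq lists 49 such genes. Of these, 43 had a named probe on the array and 40 had a probe detected often enough to be tested, among 9797 tested genes in all. All 3 genes that missed the detection filter, NDUFS6, NDUFC2 and COXFA4L2, lay at or near background, with detection on at most 1 array. No probe was named here for 6 members, among them NDUFA2, NDUFA6, NDUFB9, NDUFAF8 and the read-through gene NDUFC2-KCTD14. A pair of tested members now has other names: COXFA4, once called NDUFA4 and today counted with cytochrome c oxidase, and PYURF, which carries the synonym NDUFAFQ.

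Expression was profiled in HEK293T, a human embryonic kidney line that expresses the SV40 large T antigen, with 3 arrays of control cells and 3 arrays of cells that had received 4 µg of cloned hsa-miR-128 in a well of a plate. Whether control cells got an empty vector, and which of the miR-128 hairpins was cloned, the labels leave unsaid. Both groups are called biological triplicates, all 6 arrays were on 1 slide, and the controls occupied the first 3 sections, so that position on the slide and group cannot be fully told apart. In a bulk extract, fewer cells of a kind and less RNA per cell cannot be told apart.

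Complex I passes electrons from NADH through a flavin and a chain of iron-sulfur clusters to ubiquinone and pumps protons across the inner membrane. It is shaped like an L. The matrix arm holds the flavin and the clusters, the membrane arm holds the proton pumps, and the enzyme is built from modules with the help of assembly factors that are absent from the finished complex. The core subunits encoded in the nucleus all belong to the matrix arm. The core subunits of the membrane arm are encoded by mitochondrial DNA and had no named probe here (0 of 7).

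The 3p strand of the transfected microRNA is shown first, because its seed defines which messages it can pair with. In the RefSeq annotation of GRCh38.p14 the 3p strand is identical at both of its loci, chr2:135665446-135665466 (MIR128-1, plus strand) and chr3:35744527-35744547 (MIR128-2, plus strand). The 5p strands differ between the loci, carry another seed, GGGGCCG, and are not shown. Capitals mark the seed, bases 2 to 8.
hsa-miR-128-3p: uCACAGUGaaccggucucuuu

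Promoter sequences of several members are shown because most subunit genes were lower in transfected cells. Matches to factors known to act at respiratory genes could also be looked up in them. RefSeq promoters, 250 bases before to 50 bases after the start site, were given for 37 of the 40 tested members and for 8131 of all tested genes. Both strands were searched for AAGATGGC, a core of the YY1 motif, a 10-base NRF1 motif (GCGCA and GCGC with any base between them), CCGGAAG for ETS factors such as GABPA, and AAGGTCA for ERR-type nuclear receptors. AAGATGGC was found in 6 of 37 members (16.2%), in 6.64% of the 8131 tested genes and in 2.89% of all 35116 promoters. In all 6 it lay on the sense strand and began between base 11 and base 22 of the transcript. These windows run from 10 bases before the start site to base 30, with the match in capitals.
NDUFS7 (GRCh38.p14 chr19:1383897-1383936, plus strand): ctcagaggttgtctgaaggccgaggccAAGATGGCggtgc
NDUFA3 (chr19:54102845-54102884, plus strand): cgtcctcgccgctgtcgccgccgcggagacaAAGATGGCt
NDUFA7 (chr19:8321346-8321385, minus strand): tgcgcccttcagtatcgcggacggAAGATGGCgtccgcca
NDUFA9 (chr12:4649104-4649143, plus strand): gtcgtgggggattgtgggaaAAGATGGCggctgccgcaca
NDUFB8 (chr10:100529842-100529881, minus strand): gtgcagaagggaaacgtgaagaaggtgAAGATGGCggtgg
NDUFS4 (chr5:53560629-53560668, plus strand): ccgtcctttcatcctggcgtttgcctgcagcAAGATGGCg

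The NRF1 motif was found in 7 of 37 members (18.9%), in 13.9% of tested genes and in 5.78% of all promoters. CCGGAAG stood in 6 members (16.2%), 22.6% of tested genes and 10.3% of all promoters, and AAGGTCA in 3 members (8.11%), 3.53% of tested genes and 3.92% of all promoters. Over all tested genes, the median log2 fold change was -0.036 with AAGATGGC and -0.020 without it. It was -0.015 and -0.023 for the NRF1 motif, -0.014 and -0.024 for CCGGAAG, and -0.0001 and -0.023 for AAGGTCA. Among members the pairs, in that order, were -0.36 and -0.25, -0.43 and -0.24, -0.41 and -0.24, and -0.87 and -0.24. The value of -0.87 is the middle of only 3 members with AAGGTCA. NDUFB4 and NDUFS7 were lower, and NDUFA5 was higher (0.76). The part of these motifs in the fold changes was not tested. No match of one motif overlapped a match of another, while the pair of NRF1 matches in NDUFA8 overlapped each other. The window of NDUFB4, a membrane arm subunit described below, held 3 matches to the NRF1 motif and 1 to AAGGTCA. NDUFAF5, an assembly factor that was higher in transfected cells, is set beside it.
NDUFB4 (GRCh38.p14 chr3:120596166-120596345, plus strand): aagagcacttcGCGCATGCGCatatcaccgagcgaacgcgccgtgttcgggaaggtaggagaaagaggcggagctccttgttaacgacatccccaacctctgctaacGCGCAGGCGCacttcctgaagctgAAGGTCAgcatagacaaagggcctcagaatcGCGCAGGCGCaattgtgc
NDUFA8 (chr9:122159760-122159789, minus strand): ccggatGCGCATGCGCAGGCGCcgtgtggc
NDUFAF5 (chr20:13785018-13785047, plus strand): gcgctgGCGCATGCGCacaaaaagcgccgg

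Mean signal per array was 660, 513 and 626 in controls and 408, 512 and 591 in transfected cells. Detected probes (detection p under 0.01) numbered 14345, 14001 and 14213 in controls and 12995, 13856 and 14298 in transfected cells. Transfected array 1 was thus the dimmest, with the fewest detected probes. The number of arrays limits the precision. Of 8 genes listed as HEK293T markers, 5 were measured, namely NEFL, KRT8, KRT18, VIM and CDH2, and NEFM, PAX2 and LHX1 were detected on no array. Of 7 markers of other cell types, 4 (PTPRC, CD3E, PECAM1 and ALB) were detected on no array. On the normalized scale, 4 of the 5 measured HEK293T markers were lower, KRT8 by the most (-1.02 ± 0.16, adjusted p = 0.0501), followed by NEFL (-0.69 ± 0.19, adjusted p = 0.0764). All 3 measured markers of other cell types, CD68, COL1A1 and DCN, were lower with overlapping groups and a median of -0.56. CD68 and COL1A1 were detected on all 6 arrays and DCN on 4. The deposited signal, which also follows the brightness of the whole array, summed over the HEK293T list was 26855 to 37906 in controls and 14666 to 30412 in transfected cells. Over the list of other cell types it was 4297 to 6703 in controls and 3770 to 4456 in transfected cells, and the part of these markers in the results below was not tested.

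No gene passed limma's test after Benjamini-Hochberg adjustment over all genes, 0 of the 40 members and 0 of 9797 genes (0%). The smallest adjusted p of a member was 0.0501, just above the threshold of 0.05, and the count depended on the processing, as given below. At an unadjusted p under 0.05, 15 members (37.5%) were lower in transfected cells, where 16.1% of all genes were, and 3 (7.5%) were higher, where 12.5% of all genes were. The log2 fold change, transfected minus control on normalized log2 intensity, was below 0 in 31 of 40 members and in 52.1% of all genes. Its median was -0.24 over the members and -0.03 over all genes, with a range of -0.92 to 0.76. All 3 transfected arrays lay below all 3 controls in 18 members (45%), against 18.1% of all genes, and above them in 2 members (5%), against 14.7% of all genes. These shares describe the list, and no test of the list was made.

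**Figure D1:**
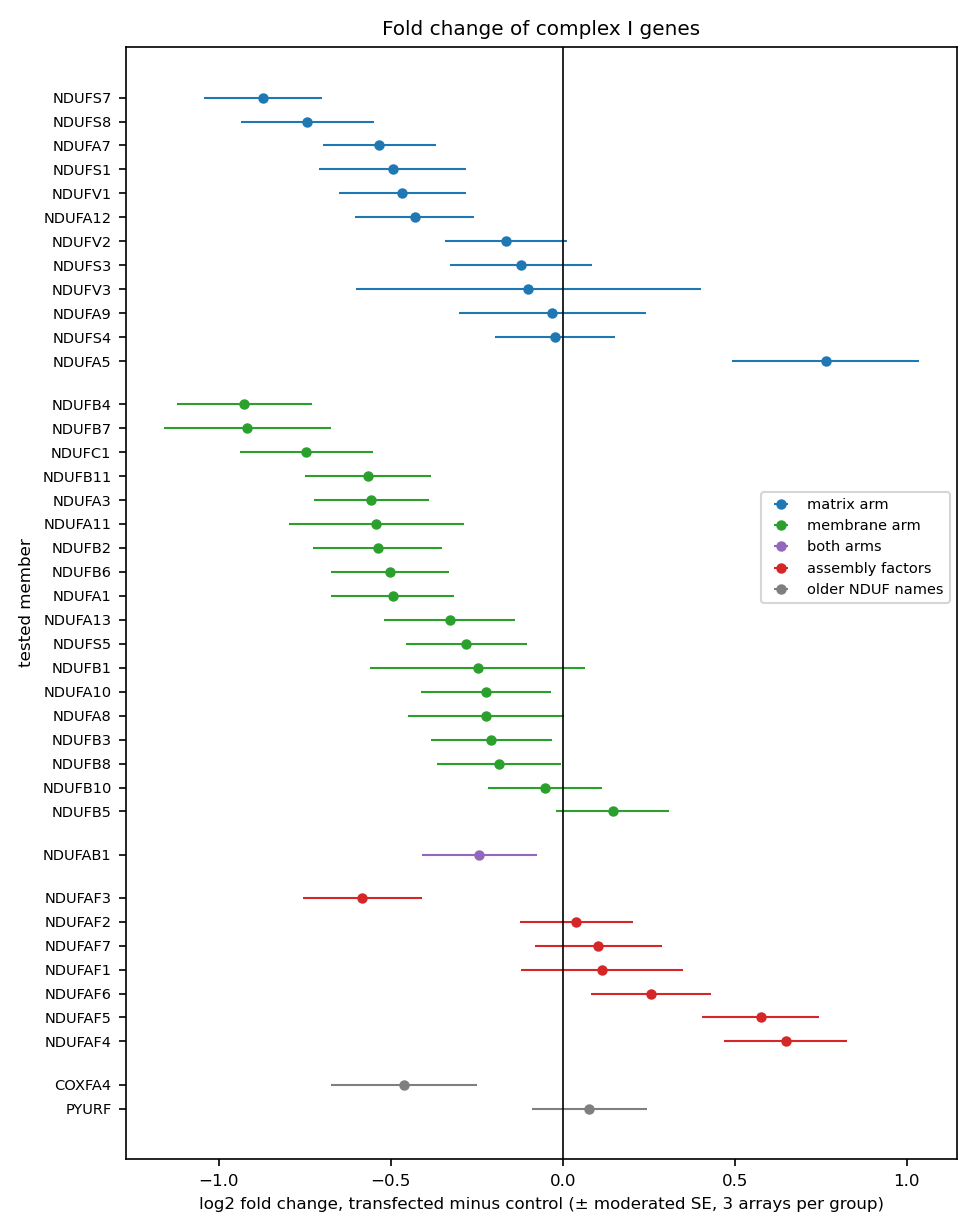
Log2 fold change (x axis, transfected minus control, with the moderated standard error) of the 40 tested members (y axis), grouped by their place in the complex. Of 12 matrix arm and 18 membrane arm subunits, 11 and 17 lie left of 0, whereas 6 of 7 NDUFAF assembly factors lie right of it, 4 of which move to the left when arrays are scaled to equal medians.

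Most subunits were lower and most NDUFAF assembly factors higher as processed here. Of 31 tested subunits 29 were lower in transfected cells, with a median log2 fold change of -0.33, whereas 6 of 7 assembly factors were higher, with a median of 0.11. With arrays scaled to equal medians the median gene itself went to -0.33, 30 subunits were lower and only 2 assembly factors, NDUFAF4 and NDUFAF5, were higher. Relative to the median gene, 28 of 31 subunits lay below it and 6 of 7 assembly factors above it either way. Both scalings keep the order of genes within each array, so these equal counts are no separate support. With the slide section as covariate the median of the assembly factors was -0.12. The difference between subunits and assembly factors was not tested.

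The core subunits of the matrix arm were all lower, 6 of 6 tested, with a median log2 fold change of -0.48. NDUFS7 carries the last iron-sulfur cluster before ubiquinone. Its log2 intensity was 10.80, 10.89 and 10.57 on the controls and 9.83, 9.83 and 9.99 on the transfected arrays. The groups stood well apart, by 1.83-fold (log2 difference -0.87 ± 0.17 SE, n = 3 per group), and NDUFS7 had the smallest p of any member, at an adjusted p of 0.0501. It missed the threshold here and passed under 9 of 19 alternatives, with log2 differences of -1.19 to -0.80 over all of them. NDUFS8, an iron-sulfur subunit next to it, stood at 13.70, 13.90 and 13.75 in controls and at 12.80, 12.99 and 13.34 in transfected cells. Here too the groups were separate, and transfected array 3 was the nearest to the controls (-0.74 ± 0.19, adjusted p = 0.0712).

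NDUFV1 binds NADH and the flavin at the tip of the matrix arm. It was even among controls, at 11.64, 11.65 and 11.54, and lower in transfected cells, at 11.01, 10.98 and 11.43. Transfected array 3 lay just below the lowest control (-0.47 ± 0.19, adjusted p = 0.146). NDUFS1, the largest subunit of the electron input module, had 6.80, 6.98 and 7.30 in controls and 6.78, 6.25 and 6.57 in transfected cells. The groups touched without overlapping, since control 1 and transfected array 1 differed by less than the typical error over beads, which had a median of 0.063 over the members on the log2 scale (-0.49 ± 0.21, adjusted p = 0.171). NDUFV2, the partner of NDUFV1, was at 11.56, 11.50 and 11.81 against 11.48, 11.58 and 11.32. Its groups overlapped (-0.16 ± 0.18, adjusted p = 0.551). NDUFS3, a scaffold of the ubiquinone module, was at 12.71, 13.06 and 12.88 against 12.45, 12.79 and 13.04, and overlapped (-0.12 ± 0.21, adjusted p = 0.718). Its difference was 0.03 when transfected array 1 was left out.

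**Figure D2:**
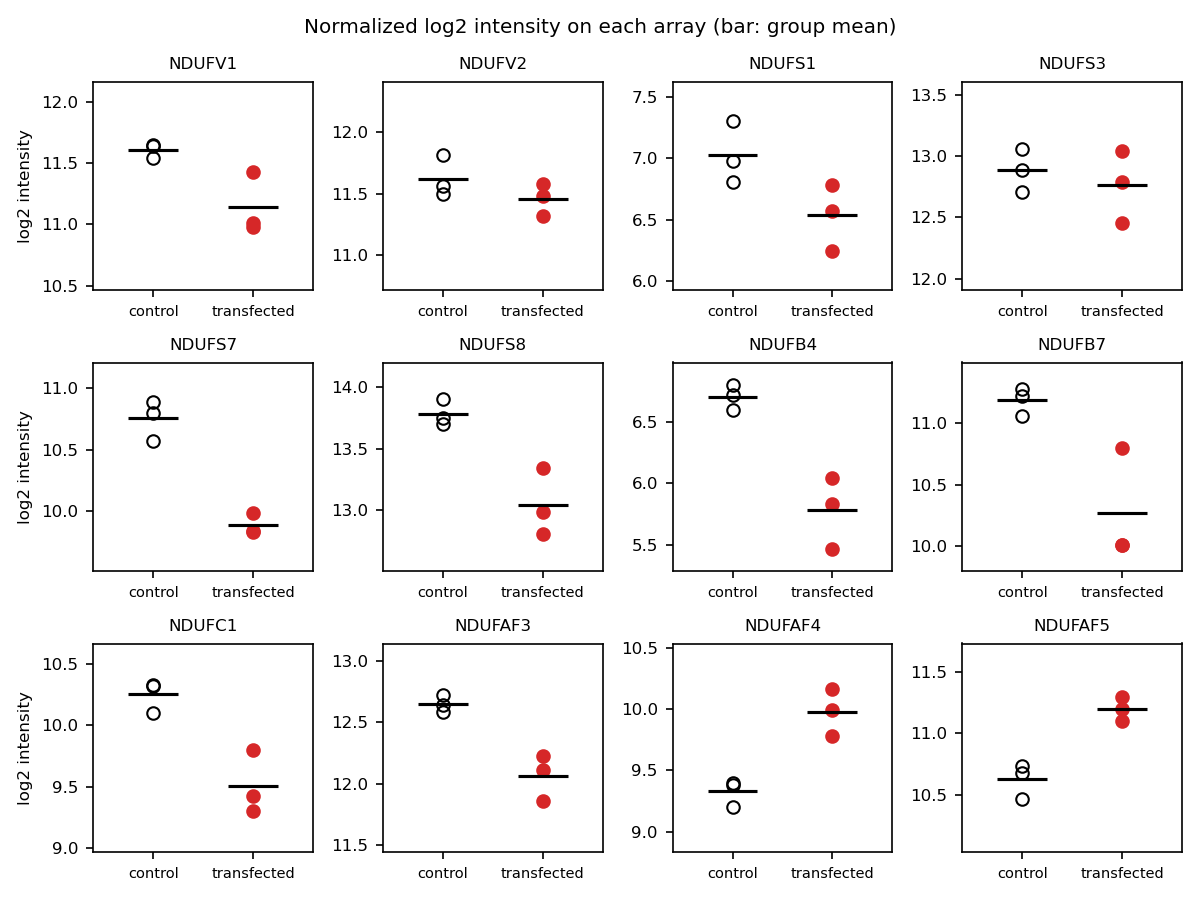
Normalized log2 intensity (y axis) of 12 members on each array, open circles for controls and filled circles for transfected cells, with bars at the group means. All panels span the same number of log2 units. NDUFS7, NDUFS8, NDUFB4, NDUFB7, NDUFC1 and NDUFAF3 have separate groups with the transfected arrays lower, NDUFAF4 and NDUFAF5 with the transfected arrays higher, and NDUFV2 and NDUFS3 overlap.

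Among the other subunits of the matrix arm, NDUFA7 and NDUFA12 were lower and NDUFA5 was higher. NDUFA7 was at 10.04, 10.30 and 10.17 in controls and at 9.62, 9.63 and 9.66 in transfected cells. The transfected arrays were nearly equal to each other and all below the controls (-0.53 ± 0.16, adjusted p = 0.0919). NDUFA12, which takes the place of the assembly factor NDUFAF2 late in assembly, had 11.21, 11.26 and 11.22 against 10.89, 10.58 and 10.93, again without overlap (-0.43 ± 0.17, adjusted p = 0.150). NDUFA5, a subunit of the ubiquinone module, was the single tested matrix arm member that was higher. It stood at 6.76, 6.67 and 7.01 in controls and at 7.82, 7.94 and 6.96 in transfected cells. Transfected arrays 1 and 2 were above every control but array 3 was among them (0.76 ± 0.27, adjusted p = 0.120). The remaining 3 tested subunits of this arm, NDUFA9, NDUFS4 and NDUFV3, had log2 differences of -0.10 to -0.02 and overlapping groups. RefSeq lists 12 pseudogenes named after NDUFA5 and 12 after NDUFB4, and whether transcripts of such copies reach their probes was not tested.

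In the membrane arm 17 of 18 tested subunits were lower, with a median log2 fold change of -0.41. NDUFB4, an accessory subunit of the distal pump module, was at 6.59, 6.72 and 6.80 in controls and at 5.46, 5.83 and 6.04 in transfected cells. It was detected on all 3 controls, which met the detection filter by themselves, and on 1 of the 3 transfected arrays, so the fold is a bound: at least 1.57-fold lower (adjusted p = 0.0533). NDUFB7, which faces the intermembrane space, had 11.06, 11.23 and 11.28 against 10.01, 10.01 and 10.80. Transfected arrays 1 and 2 were far below the controls and array 3 came nearer (-0.92 ± 0.24, 1.89-fold, adjusted p = 0.0728). NDUFC1, a small accessory subunit of the membrane arm, stood at 10.10, 10.32 and 10.33 against 9.42, 9.30 and 9.80. Its groups were separate (-0.74 ± 0.19, 1.68-fold, adjusted p = 0.0712).

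Another 5 accessory subunits of this arm had wholly separate groups and were lower. NDUFA3 was at 11.77, 11.85 and 11.75 in controls and at 11.32, 11.07 and 11.31 in transfected cells (-0.56 ± 0.17, adjusted p = 0.0874). NDUFB11, an X-linked gene of the distal module, was at 13.25, 13.20 and 12.98 against 12.51, 12.42 and 12.81 (-0.57 ± 0.18, adjusted p = 0.101). For NDUFB11 the gap between the lowest control and transfected array 3 was the narrowest part of the difference. NDUFB6 was at 9.84, 9.92 and 9.96 against 9.34, 9.27 and 9.60 on the probe used, and at 9.64, 10.02 and 9.86 against 9.64, 9.48 and 9.17 on its other probe. Both probes of NDUFB6 were lower, by -0.50 and -0.41. NDUFB2 had 10.70, 11.14 and 11.09 against 10.56, 10.32 and 10.45 (-0.54 ± 0.19, adjusted p = 0.115). NDUFA1, the other X-linked subunit, had 13.29, 13.19 and 13.11 against 12.93, 12.53 and 12.64 (-0.49 ± 0.18, adjusted p = 0.122). In both genes every transfected array was below every control.

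NDUFB5 was the single membrane arm subunit with a positive difference. Its intensities were 11.75, 11.59 and 11.76 in controls and 11.96, 11.75 and 11.82 in transfected cells, which overlapped (0.15 ± 0.16, adjusted p = 0.575), and the difference was -0.20 with arrays scaled to equal medians. The 9 other tested subunits of this arm (NDUFA8, NDUFA10, NDUFA11, NDUFA13, NDUFB1, NDUFB3, NDUFB8, NDUFB10 and NDUFS5) had log2 differences of -0.54 to -0.05 and adjusted p-values of 0.198 to 0.861. Of these, NDUFA13, known also as GRIM-19, had groups that did not overlap, but by less than the error over its beads. NDUFAB1, the mitochondrial acyl carrier protein that sits in both arms, was at 12.39, 12.28 and 12.22 in controls and at 12.19, 11.996 and 11.97 in transfected cells. Every transfected array was lower, though control 3 and transfected array 1 differed by less than the error over beads (-0.24 ± 0.17, adjusted p = 0.353).

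The arms of the complex were set against each other by their medians. The median difference of the matrix arm minus the membrane arm was 0.11 on the log2 scale, with a spread of 0.061 between arrays (SD pooled within groups). It was -0.02 among genes detected on all 6 arrays, -0.12 with the slide section as covariate and -0.13 without transfected array 3, so the order of the arms was not settled.

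**Figure D3:**
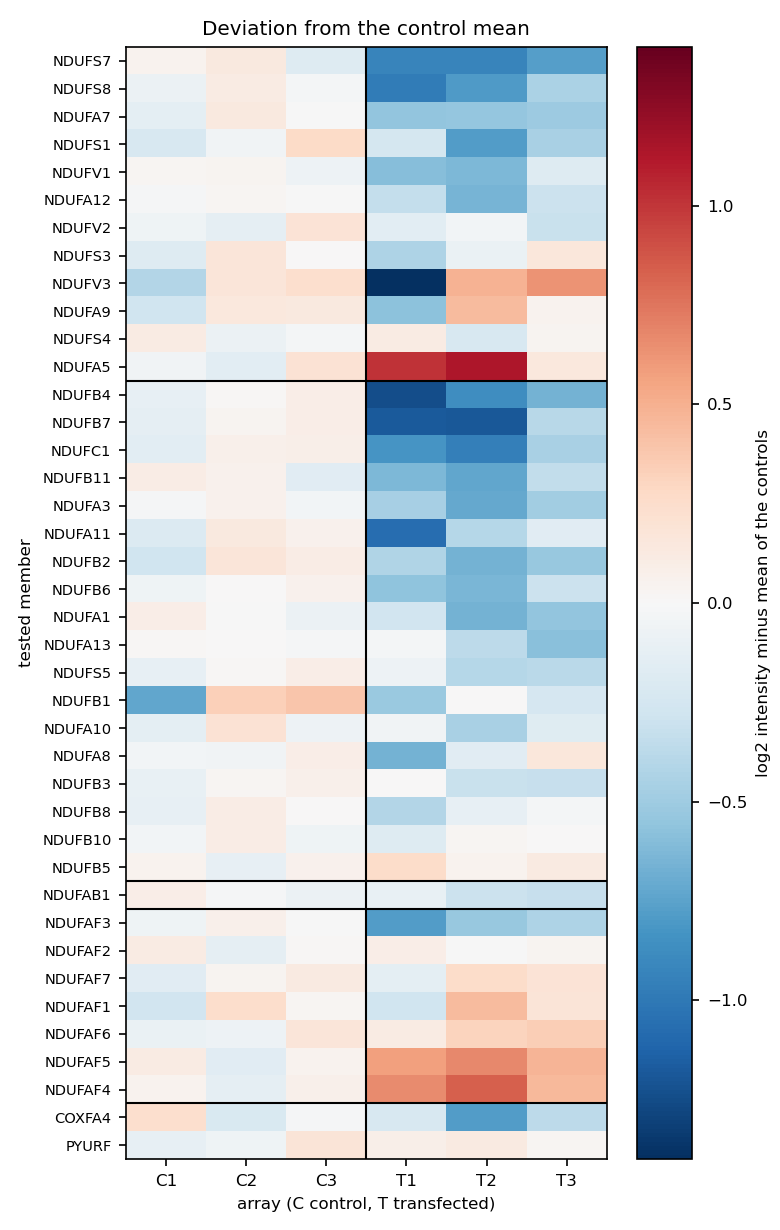
Log2 intensity of each tested member (rows) on each array (columns) as the deviation from the mean of the controls, blue for lower and red for higher, with lines between matrix arm, membrane arm, NDUFAB1, assembly factors and the renamed members. NDUFS7, NDUFB4 and NDUFB7 are blue on all 3 transfected arrays, NDUFAF4 and NDUFAF5 are red on all 3, and NDUFV3 and NDUFA9 have opposite signs on transfected arrays 1 and 2.

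Among the NDUFAF assembly factors, a pair of partners lay on opposite sides of the controls. NDUFAF3 and NDUFAF4 bind each other and act early, on the ubiquinone module and its joining to the membrane. NDUFAF3 was at 12.58, 12.72 and 12.64 in controls and at 11.86, 12.11 and 12.22 in transfected cells, all transfected arrays being lower (-0.58 ± 0.17, adjusted p = 0.0870). NDUFAF4 was at 9.38, 9.21 and 9.40 against 9.99, 10.16 and 9.78, all transfected arrays being higher (0.65 ± 0.18, 1.57-fold, adjusted p = 0.0762). The second kept probe of NDUFAF4 went the same way, with a difference of 0.59. That of NDUFAF3 was undetected on transfected array 1 and its groups overlapped. NDUFAF5, the enzyme that hydroxylates an arginine of NDUFS7, had 10.74, 10.46 and 10.67 in controls against 11.20, 11.30 and 11.10 in transfected cells. It was higher without overlap (0.57 ± 0.17, adjusted p = 0.0853), and by 0.34 on its other kept probe, while NDUFS7 itself was lower.

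The other assembly factors had small differences. NDUFAF1, part of an assembly complex with ACAD9 and ECSIT, was at 8.31, 8.83 and 8.60 against 8.30, 9.02 and 8.76 (0.11 ± 0.24, adjusted p = 0.768). NDUFAF2, the relative of NDUFA12, was at 11.10, 10.86 and 11.01 against 11.08, 10.98 and 11.03 (0.04 ± 0.16, adjusted p = 0.889). These groups overlapped, and both differences changed sign with arrays scaled to equal medians (-0.20 and -0.27). NDUFAF6, which acts with the early membrane module, was at 8.12, 8.14 and 8.38 against 8.32, 8.52 and 8.55, with a small overlap (0.26 ± 0.17, adjusted p = 0.345), and at -0.06 with equal medians. NDUFAF7, a methyltransferase of the mitochondrial matrix, had 9.59, 9.78 and 9.87 against 9.61, 10.0005 and 9.93 (0.10 ± 0.18, adjusted p = 0.733), and -0.21 with equal medians. It was the single member whose kept probes disagreed in sign, at 0.10, 0.31 and -0.08.

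Of the renamed members, COXFA4 was at 13.71, 13.26 and 13.46 in controls and at 13.25, 12.69 and 13.11 in transfected cells. Control 2 and transfected array 1 differed by less than the error over beads (-0.46 ± 0.21, adjusted p = 0.193). PYURF was at 11.95, 12.004 and 12.24 against 12.15, 12.19 and 12.09, with overlap (0.08 ± 0.17, adjusted p = 0.780).

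Of 17 further factors for assembly and import that carry other names, all were tested and none passed. Of these, 11 were lower and 6 higher, with a median of -0.12, and at an unadjusted p under 0.05 2 (11.8%) were lower and 1 (5.88%) higher. Both shares were below those of all genes, 16.1% and 12.5%. DMAC2, a factor of the distal membrane arm, was at 10.82, 10.77 and 10.67 in controls and 10.10, 9.97 and 10.42 in transfected cells (-0.59 ± 0.18, adjusted p = 0.0927). OXA1L, the insertase of the inner membrane, was at 9.82, 9.76 and 9.62 against 9.43, 9.27 and 9.17 (-0.44 ± 0.17, adjusted p = 0.136). TMEM126B, a partner of NDUFAF1, was at 11.50, 11.73 and 11.97 against 12.05, 12.24 and 12.27 (0.45 ± 0.19, adjusted p = 0.157). All 3 had groups that did not overlap, 2 below the controls (11.8% of the 17, against 18.1% of all genes). The other 1 lay above them (5.88%, against 14.7%). ECSIT, next by p, was detected in 2 of 3 transfected samples and had overlapping groups, the transfected mean being at least 1.14-fold lower (adjusted p = 0.311).

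Regulators of respiratory genes went both ways, with 7 higher and 4 lower. Of 12 listed, 11 were tested and NRF1 was detected on no array. The median log2 fold change was 0.43, and none passed adjustment. At an unadjusted p under 0.05, 4 of 11 (36.4%) were higher, against 12.5% of all genes, and 1 (9.09%) was lower, against 16.1%. GABPA, the ETS subunit of the nuclear respiratory factor GABP, was at 5.99, 6.00 and 6.22 in controls against 6.85, 7.17 and 6.90 in transfected cells. Its groups did not overlap (0.91 ± 0.18, adjusted p = 0.0501). The controls were dim, close to the lowest detected signal of their arrays (5.82, 5.90 and 5.85). GABPA had 2 probes, and these values are from 1 of them. GABPB1, its partner, was at 9.52, 9.41 and 9.29 against 10.01, 9.98 and 9.95 (0.57 ± 0.16, adjusted p = 0.0812). YY1 was at 10.87, 11.02 and 10.90 against 11.31, 11.71 and 11.63 (0.62 ± 0.18, adjusted p = 0.0836). TFAM, which packages mitochondrial DNA, had a difference of 0.61 ± 0.23 (adjusted p = 0.131). In these 4 genes (36.4% of the 11) every transfected array was above every control, against 14.7% of all genes. A pair of regulators (18.2%), named after their values were seen, had separate groups the other way, where 18.1% of all genes did. POLRMT, the mitochondrial RNA polymerase, was at 9.47, 9.61 and 9.46 in controls against 8.93, 9.02 and 9.30 in transfected cells (-0.43 ± 0.18, adjusted p = 0.158). ESRRA, an estrogen-related nuclear receptor, was detected in 2 of 3 transfected samples, the transfected mean being at least 1.39-fold lower (adjusted p = 0.188).

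On each array, the median deviation of the 40 members from the control mean was -0.07, 0.03 and 0.05 on controls 1 to 3 and -0.31, -0.34 and -0.27 on transfected arrays 1 to 3. All transfected arrays were below all controls by this measure. The lowest of the 6 values lay on transfected array 1 in 13 members, on transfected array 2 in 14 and on transfected array 3 in 4, and on a control in the rest. Complexes II to V (36 tested genes) had 33 lower and a median log2 fold change of -0.36, and their array medians were -0.21, -0.46 and -0.27 in transfected cells. Mitochondrial ribosomal proteins (76 tested) had 49 lower and a median of -0.19, with array medians of -0.34, -0.19 and 0.11. Transfected array 3 was thus above the control mean for the ribosomal list and below it for both arms of complex I. These lists were set side by side and not tested against each other.

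**Figure D4:**
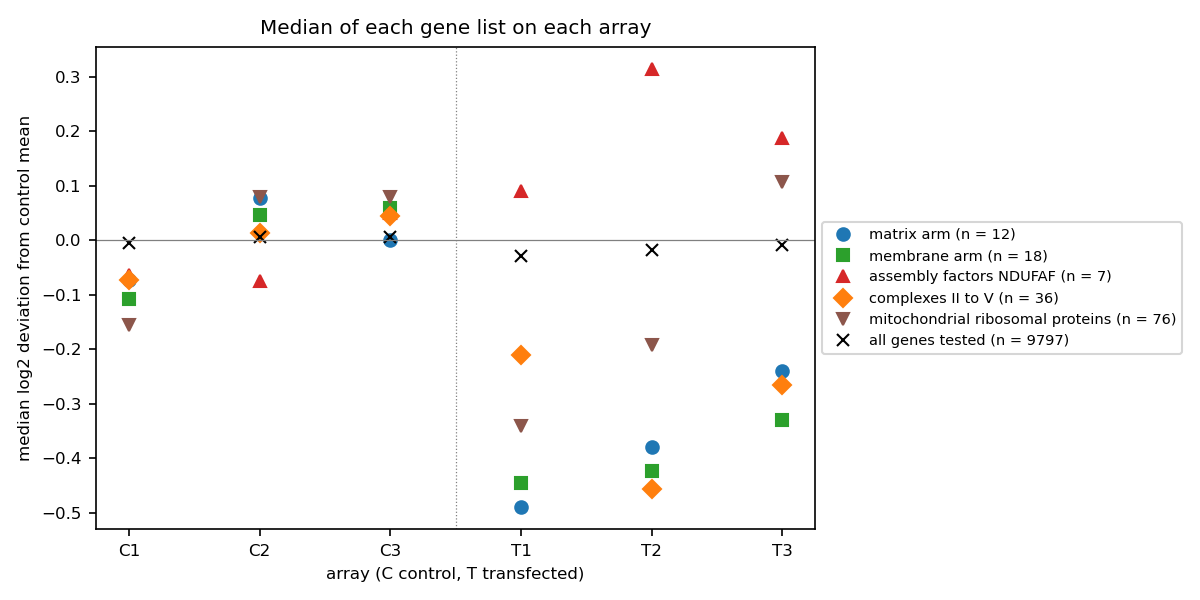
Median deviation of log2 intensity from the control mean (y axis) for each gene list on each array (x axis). Both arms of complex I and complexes II to V lie below every control on transfected arrays 1 to 3, the NDUFAF assembly factors lie above (0.09, 0.31 and 0.19), and the median of all genes stays within 0.03 of 0.

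Gene length moved with the fold change. The members were short, with a median genomic length of 12.6 kb against 29.9 kb for all tested genes. Among all genes the median log2 fold change was, in 4 classes of equal size, -0.27 in the shortest (up to 11.8 kb), -0.10 and 0.08 in the middle classes and 0.13 in the longest (from 72.1 kb). The members in the same classes numbered 18, 11, 7 and 4 and had medians of -0.48, -0.24, -0.03 and 0.01. Subunits and assembly factors differed in length as well, with medians of 25.8 kb for the matrix arm, 9.10 kb for the membrane arm and 36.6 kb for the NDUFAF factors. NDUFAF3 (3.04 kb, lower) and NDUFAF4 (8.58 kb, higher) were both in the shortest class. The members were also bright, with a median log2 intensity of 11.18 against 8.81 for all tested genes. In 4 classes of intensity, 26 members fell in the brightest. The median log2 fold change in that class was 0.01 over all genes and -0.26 over the members. The parts of length and intensity in the members' result were not tested.

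**Figure D5:**
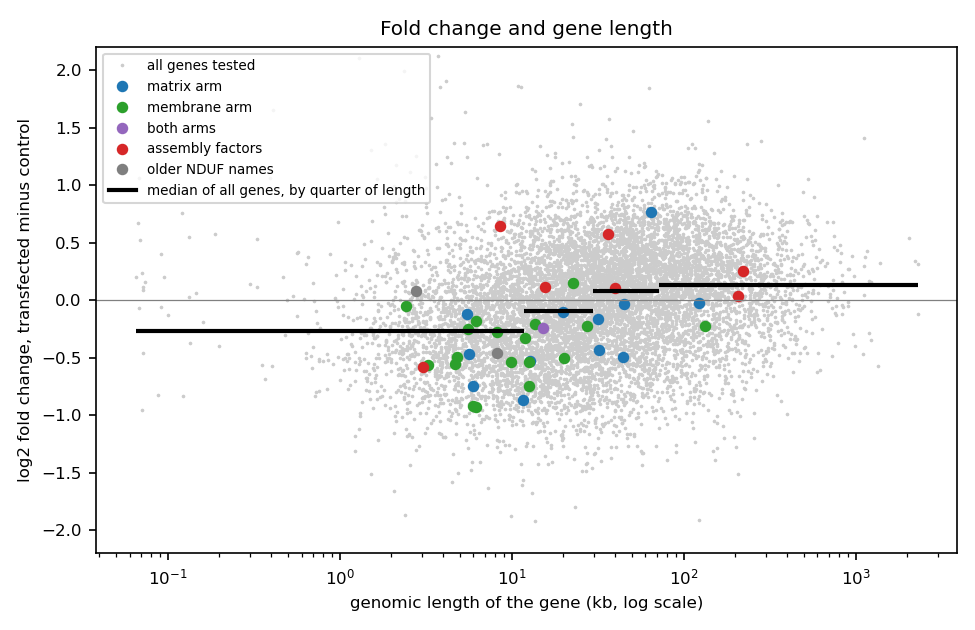
Log2 fold change (y axis, transfected minus control) against the genomic length of each gene (x axis, kb, log scale), grey for all tested genes and coloured for the members, with black lines at the median of all genes in each of 4 classes of length. The black line climbs from -0.27 to 0.13, and of the 18 members in the shortest class 16 are below 0. Another 5 genes fall outside the y axis.

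The number of members past the threshold depended on single arrays and on the processing. Without transfected array 3, 10 members passed (25%), where 16.9% of all genes did: NDUFS7, NDUFS8, NDUFV1, NDUFB4, NDUFB7, NDUFB11, NDUFC1 and NDUFAF3 as lower, NDUFA5 and NDUFAF4 as higher. Without transfected array 1, NDUFS7 and NDUFB4 passed, which is 5% of the members and equal to the 5% of all genes that passed, and without any other single array none did.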

How the data were processed

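Intensities were deposited by the authors as the mean signal over beads of each probe and array, with the number of beads (a count), its standard error and a detection p-value, per the file headers. The submitters' processing notes name BeadStudio. A second deposited table of processed intensities, with some values below 0, was used as an alternative only. Background was removed with nec of limma 3.58.1 (R 4.3.3) from the detection p-values, with an offset of 16, followed by quantile normalization and log2. Of 48803 probes, 27578 had 1 gene in the platform annotation, updated to RefSeq symbols of GRCh38.p14, 13 had several and 21212 were unnamed here. Probes had to be detected (p under 0.01) on 3 or more arrays, and each gene took its kept probe with the highest mean. Of the 40 tested members, 37 were detected on all 6 arrays. The controls alone met this filter for NDUFB4 and NDUFV3, and NDUFB1 was detected on 2 arrays of each group. Groups were compared with lmFit and eBayes, two-sided, adjusted by Benjamini-Hochberg over all 9797 genes at 0.05. The comparison was tested on simulated data. If an array of the dimmer group lacked detection, the fold is a bound: the brighter mean against the lowest detected signal of each dimmer array, or the probe's own where higher.

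The members and lists were chosen with earlier results of these data known. Values on every array are given for the core subunits, the NDUFAF factors, the 12 other members with the smallest p, up to 5 with the highest positive fold change, members whose probes disagree and up to 4 pathway genes per list. POLRMT, ESRRA, NDUFA13, NDUFAB1, PYURF, NDUFB1, NDUFV3 and the motif examples were singled out after their values were seen. An item withheld for evaluation is not reported here. The p-values measure the spread between these arrays, which the design text calls biological triplicates.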

Additional observations from a re-analysis of the deposited data

How the results depend on the processing

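The count of members past the threshold, 0 as processed, was 1 with equal medians (2.5% of members, 3.81% of all genes), 2 with cyclic loess (5% and 2.79%), 6 without background correction (15% and 4.61%), 1 with an offset of 50 (2.5% and 4.02%), 1 among genes detected on all 6 arrays (2.70% and 4%), 3 with trend and robust moderation (7.5% and 3.51%), 24 with array weights (60% and 51.1%) and 3 with the slide section as covariate (7.5% and 11.7%). It was 0 with the authors' processed intensities, with detection on at least 1 array or no filter, and with the mean or the lowest of a gene's kept probes. Leaving out 1 array at a time gave 0 to 10. Members lower numbered 27 to 37, and members with separate groups 19 to 26, over the 19 alternatives. The share of all genes with separate groups was 26.3% with equal medians, where 26 members had them, and 35.4% to 54.1% with 1 array left out, where 20 to 26 had them. The median log2 fold change of the members was -0.61 with equal medians, where 75.9% of all genes were lower and the median gene stood at -0.33, -0.35 with array weights, -0.50 with the section as covariate, and -0.31 to -0.25 with 1 array left out. The difference between the arms was -0.019 among genes detected on all 6 arrays, 0.031 among those detected on at least 1, -0.12 with the section as covariate and -0.13 to 0.16 with 1 array left out. Signs turned with equal medians for NDUFAF1 (-0.20), NDUFAF2 (-0.27), NDUFAF6 (-0.057), NDUFAF7 (-0.21) and NDUFB5 (-0.20), and with the section as covariate for NDUFAF1 (-0.45), NDUFAF6 (-0.12) and NDUFAF7 (-0.35). With 1 array left out, NDUFAF1 ranged from -0.050 to 0.31, NDUFAF2 from -0.025 to 0.10 and NDUFS3 from -0.26 to 0.031. The other 20 of 26 named members kept their direction under every alternative that tested them. The cause of these shifts was not tested. No paired analysis was possible because the labels number no replicates.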

Other observations

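A pair of dim members, named after their values were seen, were uneven among arrays of a group. NDUFV3 was at 6.04, 6.61 and 6.68 in controls and at 5.02, 6.93 and 7.08 in transfected cells, with detection on 2 of the 3 transfected arrays. NDUFB1 was at 5.71, 6.77 and 6.82 in controls and at 5.92, 6.44 and 6.20 in transfected cells, with detection on 2 arrays of each group. In both genes the first array of a group stood lowest.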
